A study of Sus scrofa with 14 samples.

Results

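The 14 arrays of a study of pig uterus were ranked by the level of a trophoblast transcript, PAG6, and the 7 arrays with the highest level were set against the 7 with the lowest. The first 7 are called PAG6-rich and the others PAG6-poor. All 14 of the 14 arrays in the series enter this comparison, and the members were chosen by the measured level of 1 of the 3 PAG6 probe sets. Each array held total RNA from the pregnant uterus of 1 Iberian x Meishan F2 sow, slaughtered between days 30 and 32 of the fifth gestation. Of the sows, 5 were classed as high prolificacy and 9 as low prolificacy, and this label entered the fits of all arrays as a covariate unless stated otherwise. The labels name no treatment and do not say from which layer of the uterine wall or how near to a conceptus a sample was taken. Values are log2 levels summarised with RMA, and arrays are named by their prolificacy group and replicate number, as in high 4.

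In the pig the placenta does not invade the uterus: a layer of trophoblast, the outer cells of the conceptus, lies against the uterine epithelium. Trophoblast secretes pregnancy-associated glycoproteins (PAGs), a large family of inactive or weakly active aspartic proteinases, and it makes steroids early in pregnancy. The uterine glands in turn secrete proteins such as uteroferrin (ACP5) and retinol binding protein (RBP4) that the conceptus takes up. A uterine sample may therefore hold transcripts of both sides.

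Among PAG6-rich arrays the PAG6 level was 11.43 in high 4, 10.89 in low 4, 10.74 in high 1, 8.74 in low 5, 8.03 in low 6, 7.18 in low 1 and 6.21 in high 5. Among PAG6-poor arrays it was 5.24 in low 7, 4.87 in low 2, 4.33 in high 3, 4.12 in low 3, 3.86 in high 2, 3.66 in low 9 and 3.60 in low 8. The levels ran without a wide gap across the division, where high 5 lay just inside and low 7 just outside. The annotation assigned 3 other probe sets to the family, 1 to PPAG3 and 2 more to PAG6, and they followed the ranking closely (Pearson r across the 14 arrays of 0.987, 0.914 and 0.988, a description of related sequences that may share probes). Each of the 3 would have put 12 of the 14 arrays on the same side, with low 7 among the 7 highest. In assembly Sscrofa11.1, 4 annotated genes lie between PAG6 and PPAG3. As the ranking used this family, the 4 probe sets assigned to it carry no test between rich and poor arrays. Whether probe sets without a symbol read other PAG genes was not checked, and such probe sets stayed in the tests.

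**Figure D1:**
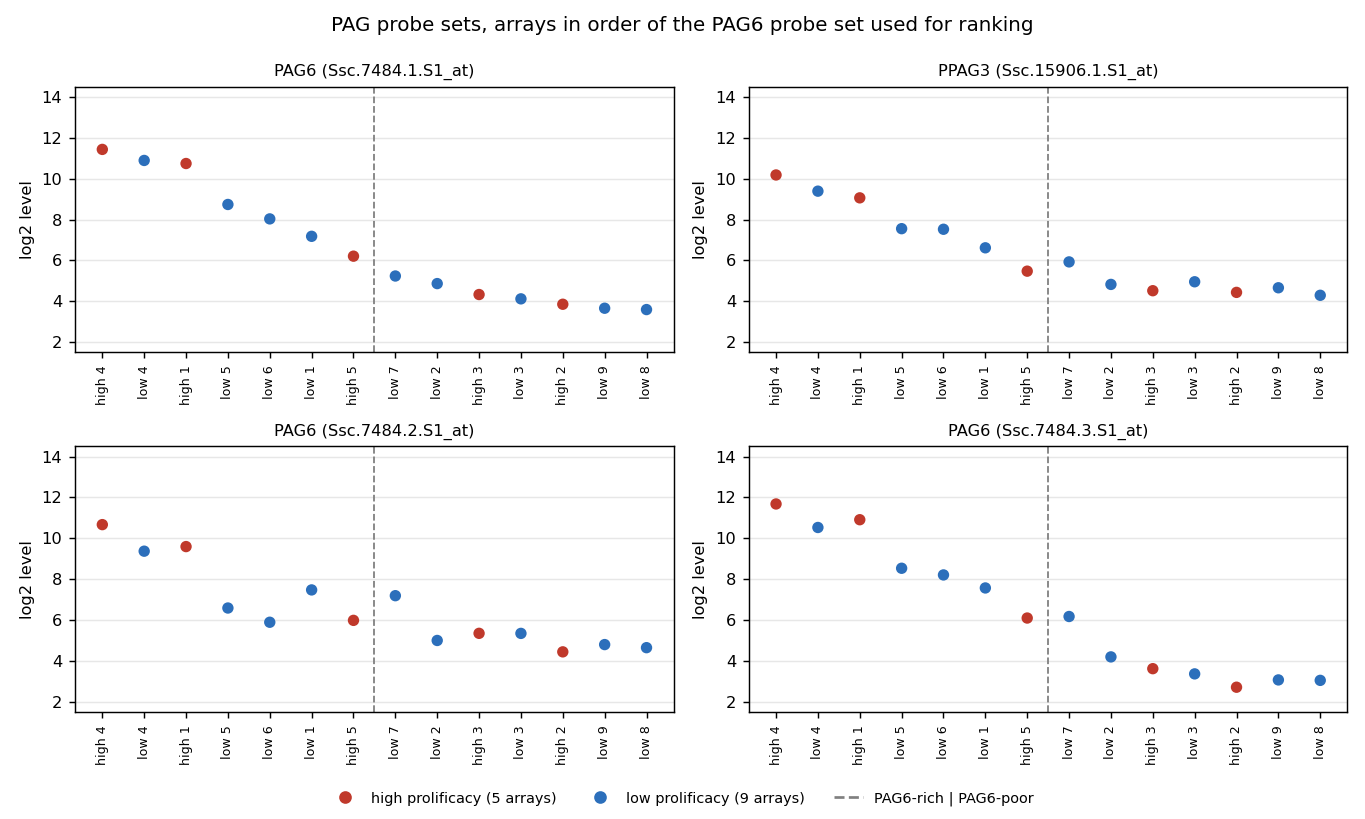
Log2 levels of the 4 PAG probe sets (vertical axes) in the 14 arrays, placed along the horizontal axis in order of the PAG6 probe set used for the ranking, with prolificacy shown by colour. Levels of the ranking probe set fall from 11.43 to 3.60, and low 7 lies above high 5 on each of the other 3 probe sets.

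Prolificacy, which the ranking did not use, was spread over both sides. PAG6-rich arrays held 3 of the 5 high prolificacy and 4 of the 9 low prolificacy sows (two-sided Fisher's exact test, p = 1). High prolificacy arrays had a mean PAG6 level of 7.32 ± 3.56 (SD, n = 5). Low prolificacy arrays had one of 6.26 ± 2.57 (SD, n = 9), which is 1.06 less (two-sided exact permutation test over 2002 splits, p = 0.52). Array medians ran from 5.73 to 5.84 in PAG6-rich and from 5.75 to 5.83 in PAG6-poor arrays, and the 3-prime minus 5-prime difference of 6 control transcripts from -0.73 to -0.055 and from -0.65 to -0.32. Pairs of arrays correlated at 0.837 to 0.983, so none was a copy of another. In smooth muscle genes 4 arrays stood apart: the mean level of 16 such genes was 7.11 to 8.00 in high 2, high 3, high 4 and high 5, of which high 4 and high 5 were PAG6-rich, and 10.43 to 12.33 in the other 10 arrays. All 4 are high prolificacy arrays, so fits within low prolificacy leave them out.

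The comparison asked which uterine and conceptus genes go with the PAG6 level. Trophoblast regulators and surface proteins (PLET1, GATA3, TFAP2C, HAND1) and genes of the first steps of steroid synthesis (STAR, CYP11A1, HSD3B1) were high where PAG6 was high. PLET1 differed by 5.89 ± 0.88 (SE) on the log2 scale between rich and poor arrays. Over all arrays none of these genes passed the test between rich and poor arrays. Their calls come from a fit of the PAG6 level, and that of TFAP2C was lost without high 4. Gland secretion genes were also higher in PAG6-rich arrays by their values (median difference 0.39), but none passed in either fit. That shift was not particular to glands, as the smooth muscle, epithelium and cell cycle lists had medians of 0.42, 0.37 and 0.56. Medians of the leukocyte lists ran from -0.16 to 0.29. Smooth muscle, epithelium and leukocyte markers had no call in either of the fits to all arrays described next. As these are bulk samples, more trophoblast cells and more RNA per cell cannot be told apart.

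Of 23995 probe sets tested between rich and poor arrays with limma, 0 passed an adjusted p of 0.05 (0% in either direction, smallest adjusted p = 0.14). At an unadjusted p under 0.05, 720 were higher (3%) and 733 lower (3.05%) in PAG6-rich arrays. Another fit put the PAG6 level itself in place of the division. It was an alternative to the main test, which called 0 probe sets. Its result is a slope, the change in log2 level for each rise of 1 in the log2 level of PAG6. In that fit 129 probe sets rose (0.538% of those tested) and 17 fell (0.0708%) with the PAG6 level, 146 in all. Exactly 1 gene symbol belonged to 73 of the 146, which stood for 53 genes that rose and 5 that fell. The count was 77 without high 4, and 79, 91, 96 and 96 without high 3, low 9, low 5 and low 8. Between rich and poor arrays, 31 were called without high 5, 4 without low 7 and 1 without high 4.

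Without high 4, the array with the highest PAG6 level, 74 of the 77 probe sets were among the 146. Of the probe sets tested, 0.308% rose and 0.0125% fell, and 28 named genes rose and 0 fell. Within the 9 low prolificacy arrays alone, 47 of the 50 called probe sets were among the 146, 0.2% of those tested rose and 0.00834% fell, and 17 named genes rose. Between rich and poor arrays the probe set called without high 4 was of GATA3 (limma adjusted p = 0.046, 0.00417% of those tested), and the probe set called in low prolificacy arrays alone was of PROM2 (limma adjusted p = 0.045), a membrane protein of epithelial protrusions. The PROM2 probe set is named here after its values were seen.

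PLET1, a surface protein of placental trophoblast and other epithelia, had the smallest p between rich and poor arrays. Its level in PAG6-rich arrays was 7.92 at the lowest, 11.49 at the median and 12.87 at the highest, and in PAG6-poor arrays 3.88, 5.16 and 8.99. The values overlapped through high 5, at 7.92, and low 7, at 8.99. The difference was 5.89 ± 0.88 (SE, 59.2-fold, limma adjusted p = 0.14), and the slope was 1.17 ± 0.096 (SE, limma adjusted p = 1.5e-05). Its other probe set, at 5.65 to 8.85 in PAG6-rich and 4.61 to 5.31 in PAG6-poor arrays, did not overlap, as for 0.129% of all probe sets on the higher side.

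GATA3, a transcription factor that directs cells to the trophoblast fate, was at 6.14, 6.96 and 10.07 (lowest, median and highest) in PAG6-rich and at 4.09, 4.79 and 5.17 in PAG6-poor arrays, with no overlap. The difference of 2.74 ± 0.47 (SE, limma adjusted p = 0.14) was 2.39 ± 0.29 without high 4 and 2.08 ± 0.32 within low prolificacy, and the slope was 0.55 ± 0.057 (SE, limma adjusted p = 0.00013). Of its 4 probe sets, 3 did not overlap and the fourth differed by 0.31. For this and each later gene that was higher without overlap, the share over all probe sets was 0.129%. TFAP2C, a partner of GATA3 in trophoblast, did not overlap either, with 4.14 to 6.28 in PAG6-rich and 3.00 to 3.86 in PAG6-poor arrays. Its difference was 1.10 ± 0.25 (SE), and its call in the slope fit (limma adjusted p = 0.041) was lost without high 4 (limma adjusted p = 0.20).

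Of 29 trophoblast genes other than PAGs, 19 were measured. Their median difference was 0.75, against -0.013 over all tested probe sets and -0.0019 over the 6763 genes taken at their brightest probe set. The difference was above 0 for 18 of the 19, where 49.7% of the 6763 genes were above 0. Between rich and poor arrays, 0 of the 19 passed the adjusted threshold and 7 were higher at an unadjusted p under 0.05, against 3.89% of the 6763 genes. GATA3, TFAP2C and CYP11A1 did not overlap (0.129% of all probe sets were higher without overlap). With the PAG6 level, 5 rose: PLET1, GATA3, TFAP2C, CYP11A1 and HAND1, a regulator of trophoblast differentiation, against 0.695% of the 6763 genes. GATA2 was the exception in sign, at 7.63 to 8.47 in PAG6-rich and 7.55 to 8.77 in PAG6-poor arrays. Without high 4 the median difference of the list was 0.48 and 4 of the 19 rose with the PAG6 level, against 0.308% of all tested probe sets.

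Steroid synthesis genes formed another group. STAR, which carries cholesterol into the mitochondrion, was at 3.35, 5.70 and 8.42 (lowest, median and highest) in PAG6-rich and at 2.77, 3.02 and 3.65 in PAG6-poor arrays, and the 2 ranges crossed at high 5 and low 7 alone. CYP11A1, which cleaves the cholesterol side chain, was at 4.55, 6.18 and 9.85 against 3.08, 3.52 and 3.83. Its 7 PAG6-rich arrays all lay above the 7 others, in an order equal to that of PAG6. HSD3B1, which makes progesterone from pregnenolone, was at 5.94, 6.91 and 9.59 against 4.62, 5.16 and 5.48, again with no overlap. Its dimmer probe set, at 4.83 to 8.71 and 4.00 to 5.00, overlapped.

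All 3 rose with the PAG6 level. The slope of STAR was 0.57 ± 0.052 (SE, limma adjusted p = 3.4e-05), that of CYP11A1 0.64 ± 0.055 (SE, limma adjusted p = 1.9e-05) and that of HSD3B1 0.40 ± 0.053 (SE, limma adjusted p = 0.0016). Without high 4 the slopes were 0.49, 0.54 and 0.32, and each kept its call. Between rich and poor arrays the differences were 2.54 ± 0.57, 2.87 ± 0.63 and 1.87 ± 0.44 (SE), none of which passed the adjusted threshold.

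The enzymes that turn these products into estrogens varied from array to array. CYP17A1, which makes androgens, was at 9.05 in high 4, 6.51 in low 4 and 6.27 in low 5, but at 4.92 in high 1, the array with the third highest PAG6 level. All PAG6-poor arrays lay between 4.38 and 5.09, and the slope of 0.31 ± 0.079 (SE) did not pass over all arrays (limma adjusted p = 0.12). It passed within the low prolificacy arrays (0.24, limma adjusted p = 0.028). CYP19A1, the aromatase, had 4 probe sets. The brightest did not separate them (4.26 to 4.70 against 4.17 to 4.89), while another ran from 2.55 to 7.90 in PAG6-rich and from 2.51 to 2.82 in PAG6-poor arrays, a difference of 1.69 ± 0.75 (SE, limma adjusted p = 0.80). Pig aromatase genes have near-identical copies, so which copy each probe set reads is uncertain.

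Of 21 listed genes of steroid synthesis and conversion, 17 were measured, with a median difference of 0.39, and 13 were above 0. Between rich and poor arrays 5 were higher, against 3.89% of the 6763 genes, and 0 lower at an unadjusted p under 0.05, and 0 passed after adjustment. STAR, CYP11A1 and HSD3B1 were the 3 that rose with the PAG6 level, against 0.695% of the 6763 genes. CYP11A1 is also in the trophoblast list and was counted there too. HSD17B2, which inactivates estradiol, was at 4.62 to 11.8 in PAG6-rich and 4.59 to 10.02 in PAG6-poor arrays, a difference of 2.31 ± 1.07 (SE, limma adjusted p = 0.82).

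**Figure D2:**
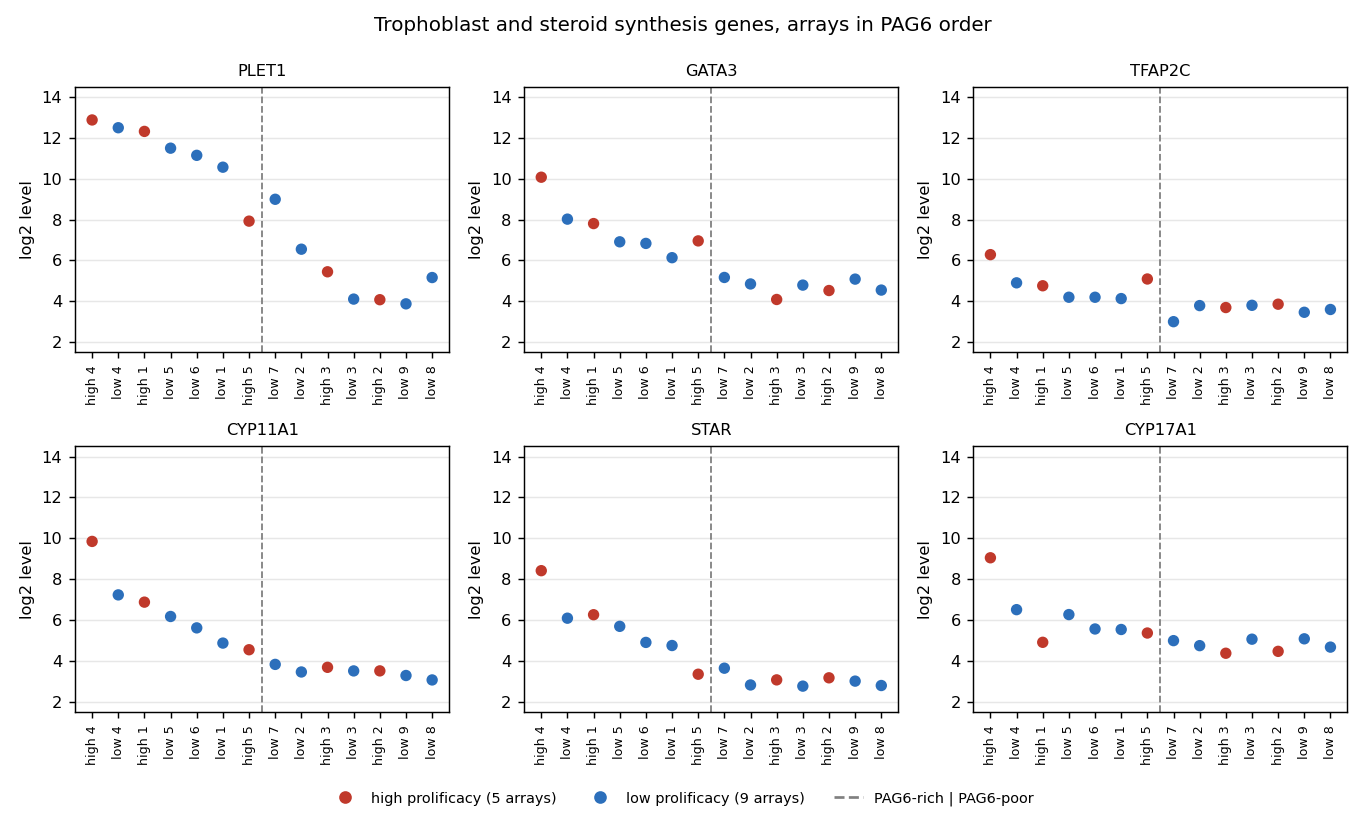
Log2 levels of 3 trophoblast genes (upper row) and 3 steroid synthesis genes (lower row) in the 14 arrays, ordered from the highest PAG6 level at the left to the lowest at the right, with prolificacy shown by colour. GATA3, TFAP2C and CYP11A1 do not overlap across the dashed line, PLET1 and STAR cross it at high 5 and low 7, and CYP17A1 is at 4.92 in high 1.

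Several other probe sets with 1 symbol had small p-values between rich and poor arrays. DPPA5, a protein of early embryonic and germ cells, was at 7.68, 10.11 and 12.58 (lowest, median and highest) in PAG6-rich and at 3.31, 3.91 and 8.17 in PAG6-poor arrays, and low 7 was the 1 poor array above the lowest rich array. Its slope was 1.06 ± 0.091 (SE, limma adjusted p = 1.9e-05). GRN, the secreted growth factor progranulin, had levels of 10.19 to 12.68 against 8.60 to 10.63 and a slope of 0.29 ± 0.029 (SE, limma adjusted p = 9.6e-05). LOC100523945, whose function is not described here, did not overlap (5.76 to 10.64 against 4.12 to 5.57), with a slope of 0.69 ± 0.041 (SE, limma adjusted p = 8.6e-07).

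For 3 symbols the probe sets disagreed. The ATP2A2 probe set with the small p was at 4.44 to 8.48 in PAG6-rich and 3.73 to 4.26 in PAG6-poor arrays, a difference of 2.43 ± 0.53 (SE), while the 3 others of this calcium pump differed by 0.12 to 0.32. For FNTA, a farnesyltransferase subunit, 1 probe set differed by 3.65 ± 0.64 (SE) and the others by -0.22 and 0.042. For PLBD1, a phospholipase-like lysosomal protein, 2 probe sets differed by 3.24 and 2.63 and the others by 0.14 and -0.12. These symbols come from an annotation that can be old, and what the deviating probe sets read was not tested.

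TBXAS1, the thromboxane synthase, did not overlap, with 5.12 to 5.61 in PAG6-rich and 3.89 to 4.92 in PAG6-poor arrays and a difference of 0.93 ± 0.17 (SE, limma adjusted p = 0.14). Within the PAG6-rich arrays it did not follow PAG6, since high 4 was at 5.16 and high 1 at 5.61. SLC7A4, a transporter-like protein, and GLA, the lysosomal alpha-galactosidase, differed by 1.34 ± 0.25 and 0.81 ± 0.16 (SE). None of these 3 rose with the PAG6 level by the test (limma adjusted p = 0.10, 0.058 and 0.22).

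Among genes named after their values were seen, RNASE1, a secreted ribonuclease, ran from 5.46 to 10.84 in PAG6-rich and from 3.88 to 5.78 in PAG6-poor arrays. FOLR1, the placental folate receptor, ran from 5.81 to 9.96 and from 4.58 to 5.66 on 1 probe set, with no overlap, although its brightest probe set differed by 0.48 ± 0.38. CITED1, a transcriptional coregulator needed for placental growth in mice, ran from 6.20 to 10.47 and from 4.89 to 6.09, with no overlap. All 3 rose with the PAG6 level and were still called without high 4. ELOVL6, a fatty acid elongase, rose on 4 probe sets and VCAN, a matrix proteoglycan, on 2. Without high 4, 1 of the 4 ELOVL6 probe sets was still called (limma adjusted p = 0.038, the others 0.067, 0.080 and 0.089). VCAN lost its call on both without high 4, and its brighter probe set stood at 8.60 in the PAG6-poor array low 2 but at 4.26 in the PAG6-rich array high 5.

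Transcripts of other conceptus parts were high in partly other arrays than PAG6. HBE1, the embryonic globin of primitive red cells, was at 12.57 in high 4, 12.65 in low 5, 10.94 in low 4 and 10.92 in low 1, but at 3.98 in high 1, 5.43 in low 6 and 6.20 in high 5. Among PAG6-poor arrays it was at 9.72 in low 2 and 9.42 in low 7 and between 4.02 and 6.01 in the rest. The difference was 2.94 ± 1.48 (SE, limma adjusted p = 0.82), beside a spread of 3.63 among rich and 2.33 among poor arrays (SD, n = 7 each). HBB, the adult globin, differed by -0.16 ± 0.50 (SE, limma adjusted p = 1), and its sign turned when the PAG6 level replaced the division. Of 14 listed red cell genes, 6 were measured, 5 were above 0 with a median difference of 0.69, and 0 were called in either fit.

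The fetal plasma proteins AFP, AHSG, SERPINA1, APOA2 and APOA1 all had their highest level in high 4. AFP, alpha-fetoprotein, was at 11.10 in high 4 and 6.78 in high 1, and the other 12 arrays lay between 3.66 and 4.29. AHSG, fetuin-A, was at 12.98 in high 4 and SERPINA1, alpha-1-antitrypsin, at 12.31, while all other arrays lay at 6.12 to 8.32 and 4.56 to 7.17. APOA2, an apolipoprotein, was at 7.52 in high 4 and 6.04 in high 1 and between 3.04 and 4.53 elsewhere. APOA1, another apolipoprotein, was at 7.71 to 10.62 across the arrays, and at 10.42 in the PAG6-poor array low 2. APOA2 was the 1 of 18 measured fetal plasma and yolk sac genes that rose with the PAG6 level, against 0.695% of the 6763 genes. Its slope was 0.35 ± 0.059 (SE, limma adjusted p = 0.012).

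The differences of these genes were smaller without high 4. That of AFP went from 1.38 ± 0.83 to 0.67 ± 0.34 (SE), that of AHSG from 0.80 ± 0.77 to 0.14 ± 0.31 and that of SERPINA1 from 1.26 ± 0.88 to 0.51 ± 0.37. That of APOA2 went from 1.37 ± 0.49 to 1.02 ± 0.34 and that of APOA1 from 0.46 ± 0.39 to 0.22 ± 0.32 (SE). The median difference of the 18 genes went from 0.46 to 0.19, with 17 of 18 above 0 over all arrays and 0 called between rich and poor arrays. APOA2 kept its slope call without high 4 (0.27, limma adjusted p = 0.017).

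EIF1AY, a translation factor gene of the Y chromosome, was at 5.86 in high 4 and between 2.16 and 2.55 in the other 13 arrays. Its difference between rich and poor arrays was 0.45 ± 0.44 (SE, limma adjusted p = 0.94) and 0.047 ± 0.095 without high 4. SRY, the other measured Y-linked gene of 8 listed, was at 2.62 to 3.13 in PAG6-rich and 2.81 to 3.36 in PAG6-poor arrays. IFNG, an interferon that pig trophoblast makes in early pregnancy, was at 6.67 in high 4 and 4.32 in low 5 and at 2.45 to 3.29 in all others.

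**Figure D3:**
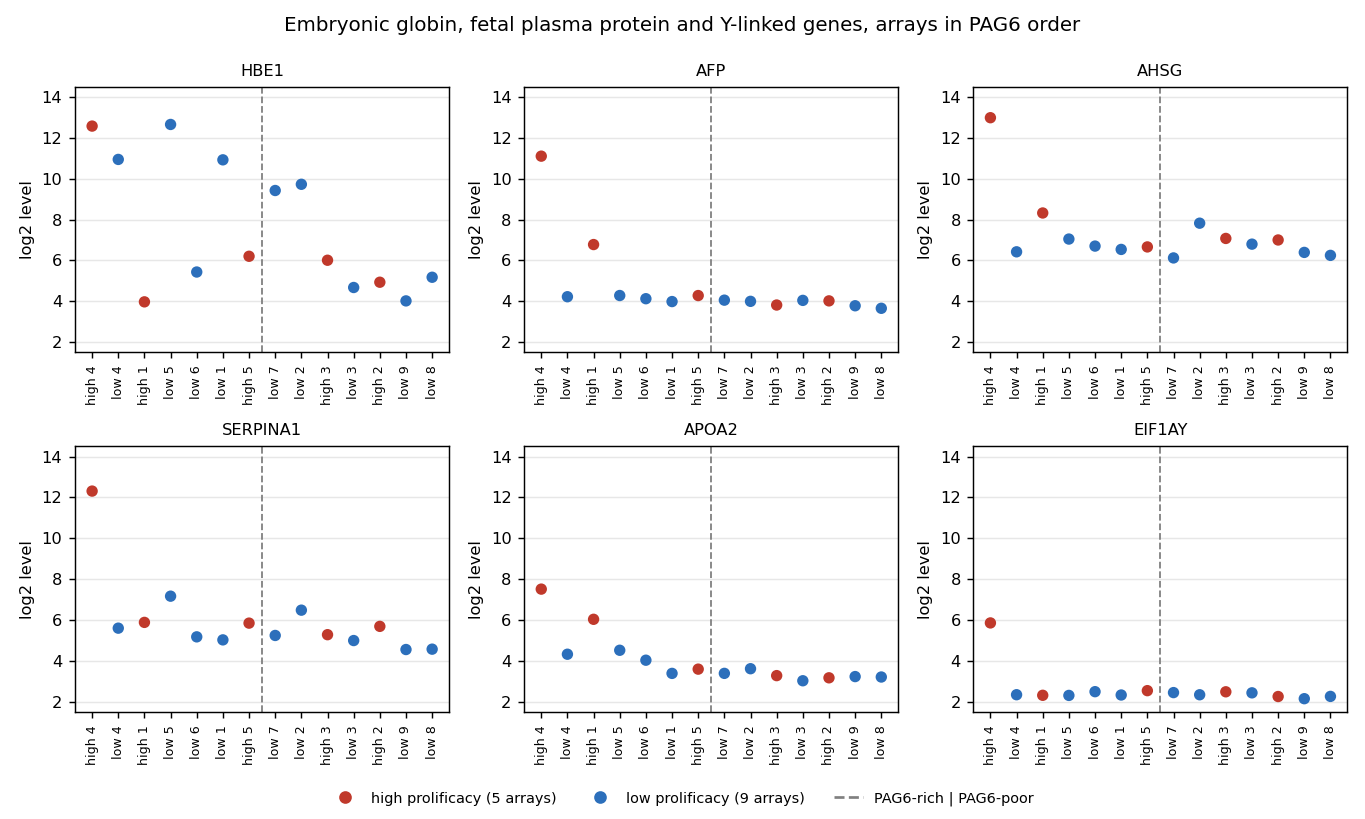
Log2 levels of an embryonic globin (HBE1), 4 plasma protein genes and the Y-linked EIF1AY in the 14 arrays in PAG6 order, with prolificacy shown by colour. HBE1 is at 9.42 or more in 6 arrays on both sides of the dashed line, AFP stands out in high 4 at 11.10 and high 1 at 6.78, and EIF1AY in high 4 at 5.86.

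Imprinted genes of placenta and fetus showed no such division. Of 19 listed, 12 were measured, with a median difference of 0.033, 8 above 0 and 0 called in either fit. IGF2, the fetal growth factor, was at 8.01, 8.38 and 9.65 in PAG6-rich and at 7.52, 8.12 and 8.76 in PAG6-poor arrays, a difference of 0.50 ± 0.27 (SE, limma adjusted p = 0.84) that was -0.020 within low prolificacy. PEG10, a placental gene derived from a retrotransposon, differed by 0.84 ± 0.51 (SE, limma adjusted p = 0.86) and was at 8.57 in high 4 and 8.16 in high 1.

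Genes listed for uterine gland secretion were higher in PAG6-rich arrays by their values without passing the test. Which tissue made these transcripts was not tested in these bulk samples. ACP5 was at 13.27, 13.67 and 13.86 (lowest, median and highest) in PAG6-rich and at 11.60, 12.95 and 13.72 in PAG6-poor arrays. The PAG6-rich arrays lay close together near the top, and of the poor arrays low 2 alone, at 13.72, was among them. The difference was 0.89 ± 0.27 (SE, limma adjusted p = 0.72). RBP4 was at 12.35, 13.22 and 13.34 against 9.22, 11.45 and 13.05, a difference of 1.55 ± 0.49 (SE, limma adjusted p = 0.72).

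SPP1, osteopontin, an adhesion protein of the uterine surface, was between 12.67 and 13.09 in high 4, low 4, high 1, low 5 and low 1. The PAG6-rich arrays low 6, at 10.18, and high 5, at 9.74, were below the PAG6-poor arrays low 2, at 12.49, and high 2, at 11.49. Its difference was 2.54 ± 0.93 (SE, limma adjusted p = 0.79). UPTI, a plasmin and trypsin inhibitor, and UABP-2, which with ACP5 forms the uteroferrin complex, differed by 1.63 ± 0.53 and 0.94 ± 0.31 (SE).

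Of 26 gland secretion genes, 20 were measured, with a median difference of 0.39, 15 above 0, 8 higher at an unadjusted p under 0.05 (3.89% of the 6763 genes) and 0 called in either fit. Of the epithelium markers 13 of 16 were above 0 with a median difference of 0.37, and the mean level of that list ran from 7.82 to 10.28 in PAG6-rich and from 6.19 to 10.28 in PAG6-poor arrays, and their part in these differences was tested only as a covariate. The lowest means, 6.19 and 6.49, were those of the PAG6-poor arrays low 7 and low 9. With that mean as a further covariate the difference of ACP5 was 0.77, that of RBP4 1.32 and that of SPP1 2.42. Trophoblast also expresses some of these markers, so this covariate does not measure uterine epithelium alone. RMA values have no true zero, so no marker could be called absent.

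AQP8, a water channel, was at 11.33 in low 5, 11.07 in high 4, 11.01 in low 1, 10.09 in high 1 and 9.51 in low 4, but at 6.03 in high 5 and 5.80 in low 6. In PAG6-poor arrays it was at 9.00 in low 2 and between 4.55 and 5.72 in the rest. The difference was 3.77 ± 1.01 (SE, 13.6-fold, limma adjusted p = 0.58). AQP8 rose with the PAG6 level (slope 0.77 ± 0.15, SE, limma adjusted p = 0.040), a call lost without high 4 (limma adjusted p = 0.18).

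It was the 1 gene of 27 measured nutrient and ion transport genes called, where 0.695% of the 6763 genes rose with the PAG6 level. The median difference of the 27 was 0.20. TFRC, the transferrin receptor, was at 4.97 to 9.90 in PAG6-rich and 4.54 to 8.55 in PAG6-poor arrays, a difference of 2.30 ± 0.72 (SE, limma adjusted p = 0.72). SLC5A6, a vitamin transporter, was at 9.14 to 10.01 against 6.90 to 9.45. SLC16A3, a lactate transporter, and SLC5A1, a glucose transporter, had the opposite sign, -1.10 ± 0.42 and -1.35 ± 0.60 (SE), and neither was called.

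Of 22 genes that answer conceptus estrogen in the uterus, 15 were measured, their median difference was 0.086 and 0 were called in either fit. LIF, a cytokine of implantation, was at 6.59 to 9.38 in PAG6-rich and 4.32 to 8.48 in PAG6-poor arrays, a difference of 1.73 ± 0.63 (SE, limma adjusted p = 0.79). IL6 was at 3.64, 6.28 and 7.78 against 3.17, 4.08 and 5.33, a difference of 1.91 ± 0.58 (SE, limma adjusted p = 0.72). Its lowest rich value belonged to low 6, which was also low for AQP8 and LIF. The receptors ESR1 and PGR differed by -0.24 and -0.22. PTGS2, the inducible prostaglandin synthase, reached 11.79 in high 3 and 11.35 in high 2, both PAG6-poor, and differed by -0.97 ± 0.87 (SE, limma adjusted p = 0.92).

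**Figure D4:**
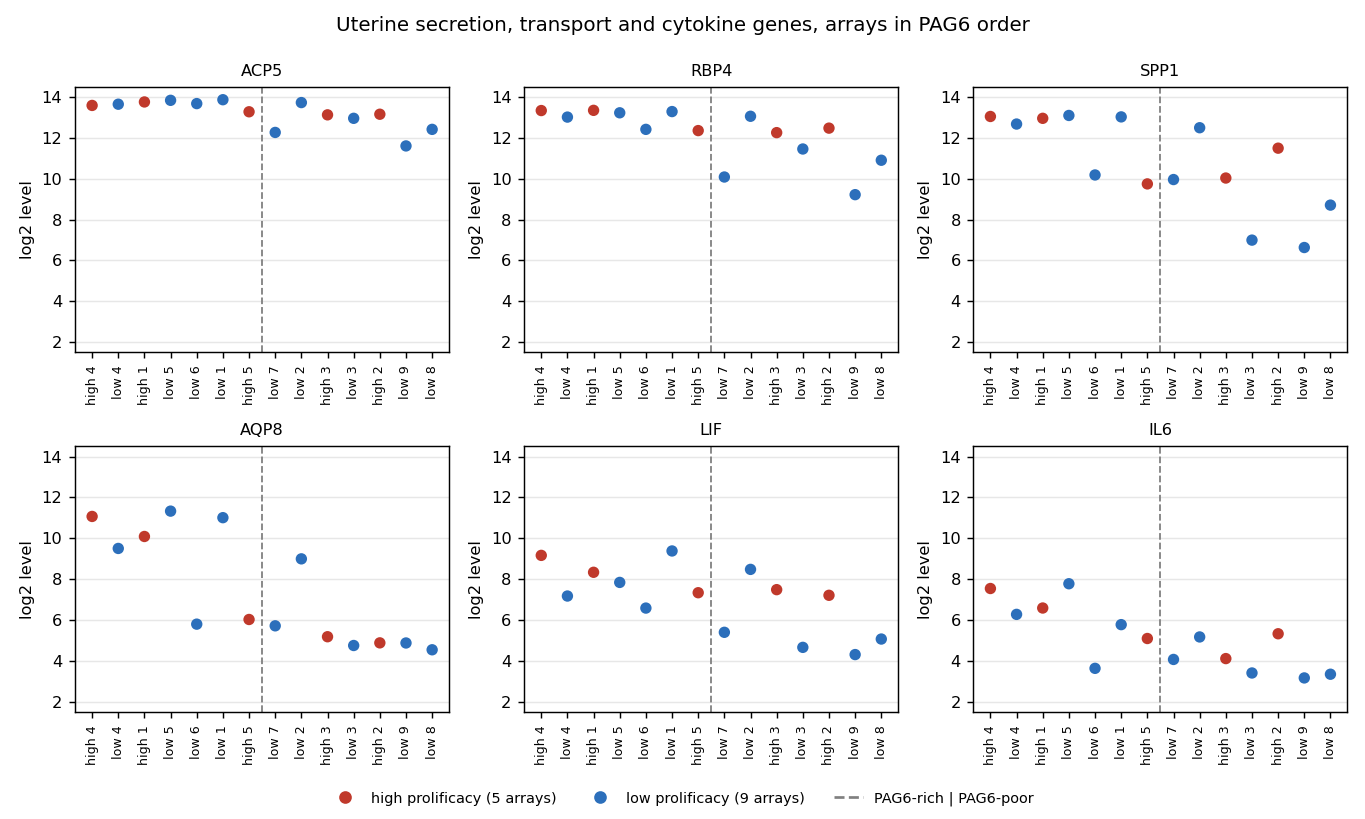
Log2 levels of 3 gland secretion genes (upper row), the water channel AQP8 and the cytokines LIF and IL6 (lower row) in the 14 arrays in PAG6 order, with prolificacy shown by colour. Rich and poor arrays overlap in every panel, with the PAG6-poor array low 2 high for ACP5, RBP4, SPP1, AQP8 and LIF and the PAG6-rich array low 6 low for SPP1, AQP8 and IL6.

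THY1, a surface protein of fibroblasts, was the 1 of 13 measured stromal genes that rose with the PAG6 level, against 0.695% of the 6763 genes. It rose on all 3 of its probe sets. The brightest was at 8.55 to 12.29 in PAG6-rich and 7.56 to 11.03 in PAG6-poor arrays, with a slope of 0.44 ± 0.071 (SE, limma adjusted p = 0.0097). The call was lost without high 4 (limma adjusted p = 0.065). COL1A2, a fibrillar collagen chain, differed by 0.96 ± 0.42 (SE, limma adjusted p = 0.80), and the median of the list was 0.26.

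All 17 measured cell cycle genes of 25 listed had a difference above 0, with a median of 0.56. Of these, 5 were higher at an unadjusted p under 0.05, against 3.89% of the 6763 genes, and 0 were called in either fit. AURKA, a mitotic kinase, was at 5.50 to 8.05 in PAG6-rich and 4.85 to 6.59 in PAG6-poor arrays. PLK1, another mitotic kinase, did not overlap (4.77 to 6.55 against 3.78 to 4.70, as for 0.129% of all probe sets) and differed by 0.69 ± 0.24 (SE, limma adjusted p = 0.78).

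Smooth muscle genes had 0 calls in either fit, although 15 of 16 differences were above 0 with a median of 0.42. The mean level of the list ran from 7.97 to 11.95 in PAG6-rich and from 7.11 to 12.33 in PAG6-poor arrays. CNN1, a muscle calponin, differed by 0.60 ± 0.51 (SE, limma adjusted p = 0.92), a sign that turned without the prolificacy covariate. KRT8, a keratin of simple epithelia, differed by 0.18 ± 0.39 (SE, limma adjusted p = 0.99) and turned sign with the PAG6 level in the fit.

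Blood vessel, leukocyte and antigen presentation lists also had 0 calls in either fit. KDR and ANGPT1, a receptor and a ligand of vessel growth, differed by -0.86 ± 0.37 and -1.37 ± 0.47 (SE), where high 3 and high 2, both PAG6-poor, were at 8.69 and 7.26 for KDR and at 7.65 and 7.52 for ANGPT1. Within low prolificacy alone the differences were -0.096 and -0.27. CD14 and AIF1, genes of macrophages, differed by 0.69 ± 0.20 and 1.16 ± 0.48 (SE). ISG15, an interferon-induced protein, differed by 1.04 ± 0.48 (SE, limma adjusted p = 0.82), and the 18 measured interferon response genes had a median of 0.31.

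**Figure D5:**
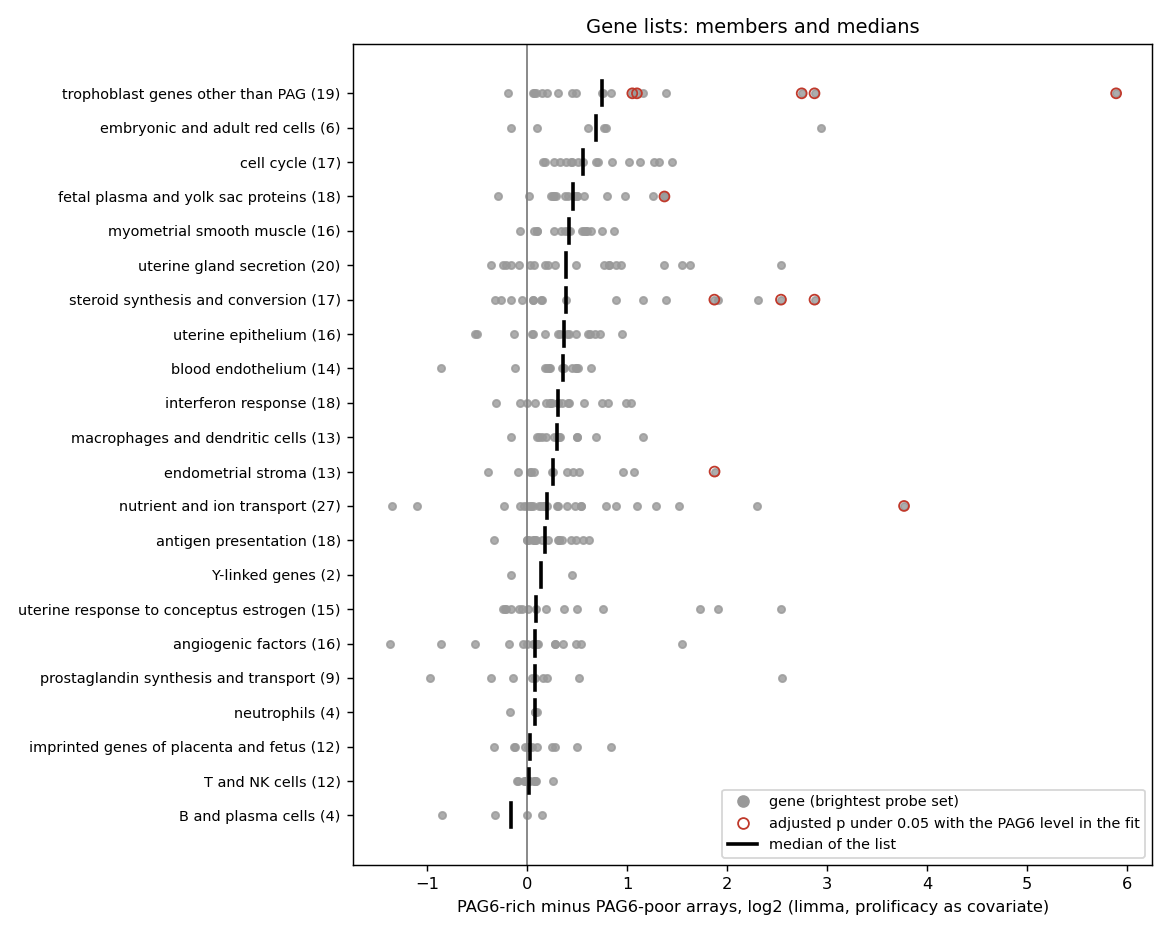
Difference between PAG6-rich and PAG6-poor arrays in log2 units (horizontal axis) for the measured genes of 22 lists (rows, with the number of genes), with the median of each list as a black bar and red circles for genes with an adjusted p under 0.05 in the fit with the PAG6 level. The trophoblast list has the highest median, 0.75, and holds 5 of the circles.

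Some genes were lower in PAG6-rich arrays by their values. GPNMB, a glycoprotein of macrophages and pigment cells, was at 5.64, 6.17 and 7.64 (lowest, median and highest) in PAG6-rich and at 6.49, 7.98 and 9.87 in PAG6-poor arrays. The ranges overlapped, and the difference of -1.67 ± 0.30 (SE, limma adjusted p = 0.14) was -0.094 to -0.52 for its 4 other probe sets. AMACR, a racemase of fatty acid oxidation, did not overlap (3.80 to 4.70 against 4.73 to 5.71, as for 0.0208% of all probe sets on the lower side) and differed by -0.71 ± 0.17 (SE, limma adjusted p = 0.42). ACOX2, a peroxisomal oxidase, differed by -0.91 ± 0.25 and NR3C1, the glucocorticoid receptor, by -0.46 ± 0.14 (SE). CCDC12, NVL, NHP2, RBM5 and FAM219B, also among the 12 lower probe sets with the smallest p, differed by -0.39 to -0.74, ZNF618 by -0.69, BLMH by -0.47 and ANKRD37 by -1.26.

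With the PAG6 level, BLMH, a cysteine peptidase, fell (slope -0.099 ± 0.020, SE, limma adjusted p = 0.038), as did ANKRD37, an ankyrin repeat protein induced by low oxygen (slope -0.27 ± 0.056, SE, limma adjusted p = 0.048). Both calls were lost without high 4 (limma adjusted p = 0.17 and 0.23). ARRDC4 and PACRGL, named after their values were seen, and ZNF618 were the other 3 that fell, and none of the 5 was called without high 4. ZNF618 fell on another probe set (slope -0.20 ± 0.037, SE, limma adjusted p = 0.024) than the one given above. The one given above was not called (slope -0.13 ± 0.032, SE, limma adjusted p = 0.10).

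Whether the difference between rich and poor arrays itself differed between high and low prolificacy was tested with an interaction term. Of 23995 probe sets 0 passed the adjusted threshold in limma (smallest adjusted p = 0.056), with 872 positive (3.63%) and 758 negative (3.16%) at an unadjusted p under 0.05. The 4 combinations held 2 to 5 arrays each, and 56 probe sets passed without high 5.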

How the data were processed

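The deposited values of the 14 arrays are log2 levels of 24123 probe sets, which the authors made with the RMA method, as the submitters' processing notes name it (software not given in the sources used here). This method equalises arrays, so a shift shared by most transcripts is removed. No detection calls were used, and the number of arrays limits the precision. After leaving out 124 controls and the 4 probe sets annotated to PAG6 or PPAG3, 23995 were tested with limma 3.58.1 in R 4.3.3 (lmFit and eBayes, two-sided, prolificacy as covariate, Benjamini-Hochberg adjustment over all 23995, threshold 0.05). Probe sets of other PAG genes without a symbol may remain among them. The procedure was also run on simulated data with independent noise, which does not measure its power on these arrays. SE is limma's moderated standard error. A fold is the antilog of a difference.

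Gene symbols come from GEO's platform annotation: 10065 probe sets had 1 symbol, 198 several and 13732 none, and 9957 of the 10065 were found in the Sscrofa11.1 gene table. In the 22 lists, written from textbook knowledge, a gene was its brightest probe set. The lists share some genes.

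The rule for named genes took, by p, the top 12 probe sets in each direction among those that name a single gene (each gene once), the 2 genes of smallest p from each list (4 for trophoblast, fetal plasma and red cells), and 17 measured genes always taken, 82 genes in all. Genes outside this rule, such as HAND1, HSD3B1, HSD17B2, TFRC, UPTI, UABP-2, SLC16A3, SLC5A1, ESR1 and PGR, were named after their values were seen. The division by PAG6, the members and lists were chosen with earlier results of these data known. Alternatives were other covariates, scalings, filters and ways to use PAG6, and leaving out each array. The slope fit was one of these ways to use PAG6 and not the main test. Its use as a result of its own, its alternatives and a division by the mean of the 4 PAG probe sets were chosen after seeing the data.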

Additional observations from a re-analysis of the deposited data

Results flagged for a closer look

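Dixon's test asked whether the highest or lowest array of the 7 rich or 7 poor stood apart from the other 6. For independent normal values about 1 in 20 tests would exceed the critical value. The tests shared arrays, and some genes were picked by their p between rich and poor arrays, so an excess over that rate cannot be judged. The gap exceeded the critical value in 16 of 164 tests. Of these, 7 belonged to high 4: AFP at 11.10 (others at most 6.78), SERPINA1 at 12.31 (at most 7.17), AHSG at 12.98 (at most 8.32), TTR at 8.44 (at most 5.58), CYP17A1 at 9.05 (at most 6.51), PLK1 at 6.55 (at most 5.28) and EIF1AY at 5.86 (at most 2.55). Low 7 stood above the other PAG6-poor arrays for LOC100523945 at 5.57 (at most 4.66). Low 2 stood above them for AQP8 at 9.00 (at most 5.72) and CD2 at 5.28 (at most 4.62), and low 3 for AMACR at 5.71 (at most 5.13) and ELANE at 4.89 (at most 4.48). Low 8 was the lowest of them for HNF4A at 5.51 (others at least 5.71). Among PAG6-rich arrays, high 5 was highest for BLMH at 8.80 (at most 8.37) and PSMB10 at 8.28 (at most 7.14), and low 6 lowest for S100G at 3.45 (at least 7.39).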

How the results depend on the processing

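Between PAG6-rich and PAG6-poor arrays the count of called probe sets, 0 with limma over all arrays and 1453 at an unadjusted p under 0.05, was 1 in low prolificacy arrays only, 5 with the epithelium mean as covariate, 2 among the 12000 brightest probe sets, 31 with array weights, 146 with the PAG6 level, 108 for the 5 highest against the 5 lowest arrays, 32 for a division by the mean of the 4 PAG probe sets, and 0 to 31 when each array was left out. The count with the PAG6 level, 146, was 50 in low prolificacy only, 69 among the 12000 brightest, 307 with array weights, 260 at an adjusted p of 0.10 and 77 to 197 when each array was left out. The interaction count was 0 to 56 when each array was left out, with 2, 2, 1 and 6 without high 3, low 1, low 6 and low 8. The share of high minus low prolificacy arrays that were PAG6-rich, 15.6 percentage points, ran from 5.56 to 30.6, and the difference in PAG6 level from 0.027 to 1.92. With the replicate number as a block the counts were 0 for the division and 125 for the PAG6 level; the same-numbered arrays correlated at 0.14, 0.13, -0.070, 0.41 and -0.25, and 1 of 5 high arrays correlated best with its own number, so the numbers were not taken to pair sows. Of 2183 alternative values of the 82 genes, 24 turned sign and 63 passed the threshold. Sign turned within low prolificacy for IGF2 (-0.020), ACTA2 (-0.0080), CD79B (-0.0038), S100A12 (0.18), TTR (-0.10), APOA1 (-0.17), HBB (0.11), PTGS2 (0.16) and CNN1 (-0.13). With the PAG6 level it turned for CD79B (-0.0089), ELANE (-0.00068), HBB (0.061) and KRT8 (-0.020). With a division by 4 PAG probe sets it turned for CD79B (-0.17), ELANE (-0.10), HBB (0.58) and KRT8 (-0.43), and with 5 against 5 arrays for HBB (0.45) and KRT8 (-0.21). HBB turned without high 5 and ran from -0.443 to 0.176 when each array was left out; KRT8 turned without low 7 and low 9 (-0.0304 and -0.0100) and ran to 0.338. KRT8 also turned with the epithelium covariate (-0.072), and CNN1 without the prolificacy covariate (-0.077). Causes were not tested.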

Other observations

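Low 2, a PAG6-poor array, had higher levels of several genes than low 6, a PAG6-rich one. Low 2, with a PAG6 level of 4.87, had HBE1 at 9.72, SPP1 at 12.49, AQP8 at 9.00, LIF at 8.48 and VCAN at 8.60. Low 6, with a PAG6 level of 8.03, had HBE1 at 5.43, SPP1 at 10.18, AQP8 at 5.80, LIF at 6.59 and IL6 at 3.64, while its PLET1 was at 11.14 and its CYP11A1 at 5.62. These 2 arrays were singled out after their values were seen, and no test was made of them.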
